A study of Mus musculus with 8 samples.

Results

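The ATF4 amino acid stress genes, taken by symbol, were followed in mouse embryonic stem cells (ESCs) depleted of HIRA complex members. They were Atf4, Ddit3, Trib3, Chac1, Asns, Psat1, Phgdh, Sesn2, Slc7a11 and Cth, 10 of the 55418 genes in the deposited count tables. Hira, Ubn1 and Ubn2 encode 3 subunits of this complex, which places histone H3.3 into chromatin also when DNA is not being copied. RNA-seq of E14 ESCs gave 8 libraries, 2 in each of 4 groups: control, Hira depletion, Ubn1 depletion and Ubn2 depletion. The labels give the strain as 12910la for every group and the control genotype as wild type, while the study's methods describe a control hairpin against luciferase. All cells grew without feeders on gelatin in serum with leukaemia inhibitory factor, and the medium was supplemented with nonessential amino acids, GlutaMAX and β-mercaptoethanol in every group. Depletion used short hairpin RNAs expressed from a pSuper-puro plasmid (1000 ng per transfection), with puromycin at 1 µg/ml from 24 h after transfection for 3 days, per the labels. The RNA was therefore that of a pool of transiently transfected, drug-selected cells with residual target mRNA, and which hairpin each library carried was not given in the sources used here.

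ATF4 is a transcription factor of the integrated stress response. When amino acids are short or proteins misfold, kinases phosphorylate the initiation factor eIF2, general translation slows, and ATF4 protein is made more efficiently through upstream reading frames in its mRNA, so the amount of Atf4 mRNA does not by itself report the amount of ATF4 protein. ATF4, often as a dimer with C/EBP proteins, then activates genes that make, import and spare amino acids, together with regulators that feed back on the response.

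The 10 genes have different places in this response. Atf4 encodes the transcription factor, Ddit3 encodes CHOP, a C/EBP family factor of prolonged stress, and Trib3 encodes a pseudokinase that binds ATF4 and restrains it. Asns makes asparagine. Phgdh and Psat1 catalyse the first steps of serine synthesis from a glycolytic intermediate, and Cth cleaves cystathionine to give cysteine. Slc7a11 is the light subunit of the cystine-glutamate exchanger, Chac1 degrades glutathione, and Sesn2 is a stress-induced leucine sensor that restrains mTORC1.

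DNA elements bound by dimers of C/EBP and ATF proteins share the core TGATGNAA, and the letters of this core were searched on both strands of the RefSeq promoters of GRCm38.p6, which run from 250 bases before to 50 bases after each gene's start. Of 32851 promoters, 1304 (3.97%) held the core. For 9 of the 10 genes (not Cth) there were 10 promoters. Of these 10 promoters 4 held the core, those of Asns, Chac1, Slc7a11 and Trib3. The matches are shown because, of these 4 genes, Slc7a11 was called higher after Hira depletion and the others were called lower after some depletions. Capitals mark the core as read on the gene's strand (or TTNCATCA, its reverse complement), and positions count from 0 at the gene's RefSeq start. That start can differ from the GENCODE interval given for a gene below. For Asns it is chr6:7693209, inside an interval that ends at 7693254. For Trib3 it is chr2:152344060, outside an interval that ends at 152344032.
Asns, core at -23 to -16, minus strand of chr6:7693214-7693243: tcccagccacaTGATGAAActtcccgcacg
Chac1, reverse core at -193 to -186, plus strand of chr2:119351038-119351067: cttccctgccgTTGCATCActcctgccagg
Slc7a11, core at -66 to -59, minus strand of chr3:50443661-50443690: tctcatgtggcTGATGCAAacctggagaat
Slc7a11, reverse core at -47 to -40, minus strand of chr3:50443642-50443671: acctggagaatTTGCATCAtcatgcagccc
Trib3, reverse core at 14 to 21, minus strand of chr2:152344028-152344057: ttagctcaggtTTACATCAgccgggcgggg

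These are matches of letters in a short window, and enhancers or introns were not searched. The palindromic cyclic AMP response element TGACGTCA, another target of ATF and CREB factors, was found in 1.79% of all promoters. It was in 0 of the 10 promoters of the 9 genes. TGACNNNGC, the core of the antioxidant response element, was found in 12.4% of all promoters and in those of Asns, Phgdh and Sesn2.

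Counts on genes totalled 19710040 to 32706053 per library, and 3 counts, the limit used for absence, corresponded to 0.0917 to 0.152 CPM (counts on a gene scaled to a common library size). Expression values below are CPM on library sizes scaled by the TMM factors. A gene was called changed at a fold change over 1.5 and an adjusted p under 0.05, where adjusted p is that of edgeR's quasi-likelihood test after Benjamini-Hochberg adjustment over all genes tested in the comparison, and fold changes are log2 values with their standard error (SE). Nothing in the labels says that the 2 libraries of a group came from separate cultures, so these p-values measure the spread between libraries, which may be technical. For a single value, 2 libraries against 2 cannot go below p = 0.333 in a two-sided exact permutation test, so no such test was made. All 3 comparisons with control share the same 2 control libraries. Counts at an unadjusted p under 0.05 are given below only beside counts of called genes. The share of all genes at that limit was not computed, so no result is read from them.

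The hairpins lowered their targets to different extents. Hira averaged 93.5 ± 5.76 CPM (SD, n = 2) in control and 10.2 ± 0.261 CPM after Hira depletion. Ubn1 averaged 48.5 ± 6.33 CPM in control and 23.8 ± 0.0369 CPM after Ubn1 depletion, and Ubn2 averaged 50.9 ± 1.12 CPM in control and 27.3 ± 3.92 CPM after Ubn2 depletion. The mean target level fell by 89.1% for Hira, fell by 51.0% for Ubn1 and fell by 46.3% for Ubn2. The depletions were thus not matched in depth. No target was called against control after depletion of another. Ubn1 (log2 fold change 0.48, adjusted p = 0.000464) and Ubn2 (0.26, adjusted p = 0.0231) were higher after Hira depletion, short of 1.5-fold. So was Hira (0.19, adjusted p = 0.0424) after Ubn2 depletion. Hira against Ubn2 depletion directly, Ubn1 was called higher by 0.72 (adjusted p = 1.61e-05). All 8 ESC markers examined were detected in every library, and their summed level was 5267 to 5458 CPM in control, 4677 to 4901 CPM after Hira, 4950 to 5101 CPM after Ubn1 and 4946 to 5077 CPM after Ubn2 depletion.

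In control ESCs the 10 genes covered a wide range of levels. Per kilobase of annotated exon, Asns was the highest at 162 ± 3.94 CPM per kb (SD, n = 2), followed by Atf4 at 132 ± 5.77, Phgdh at 96.1 ± 1.52 and Psat1 at 84.0 ± 5.03 CPM per kb. Cth stood at 35.6 and Sesn2 at 29.0 CPM per kb. Ddit3 at 18.7 ± 2.55 and Trib3 at 16.6 ± 0.258 CPM per kb differed by less than the SD of Ddit3. Chac1 lay at 10.4 ± 1.47 CPM per kb, and Slc7a11 was by far the lowest at 0.203 CPM per kb over 13.9 kb of exon. Neighbours in this order other than Ddit3 and Trib3 differed by more than either SD. The enzymes of asparagine and serine synthesis and Atf4 itself were thus the most abundant of the 10 mRNAs in control cells.

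Against control, most of the 10 genes were lower after each depletion. After Hira depletion 5 of the 10 were called down (Ddit3, Chac1, Psat1, Phgdh and Cth), beside 5.40% of the 19035 genes tested, and 1 was called up (Slc7a11), beside 10.8%. After Ubn1 depletion 6 were called down (Ddit3, Trib3, Chac1, Psat1, Phgdh and Cth), beside 1.56% of 18373 genes. With edgeR 0 were called up, beside 1.53%, although 2 (Sesn2 and Slc7a11) were higher at an unadjusted p under 0.05, and DESeq2 also called 0. After Ubn2 depletion 5 were called down (Chac1, Asns, Psat1, Phgdh and Cth), beside 8.75% of 18219 genes, and 1 was called up (Sesn2), beside 9.59%. At an adjusted p under 0.05 with no fold limit, 2 of the 10 were higher and 6 lower after Hira depletion (17.6% and 17.3% of all genes tested), 0 and 7 after Ubn1 (4.14% and 3.62%) and 1 and 7 after Ubn2 depletion (20.0% and 19.1%). The 1 gene called up after Hira and the 1 after Ubn2 depletion are counts near the share of all genes. All 10 genes passed the filter on low counts in every comparison. The median log2 fold change over the 10 was -0.62 after Hira, -0.78 after Ubn1 and -0.64 after Ubn2 depletion, while the median over all genes tested was 0.01, -0.00 and -0.00.

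**Figure D1:**
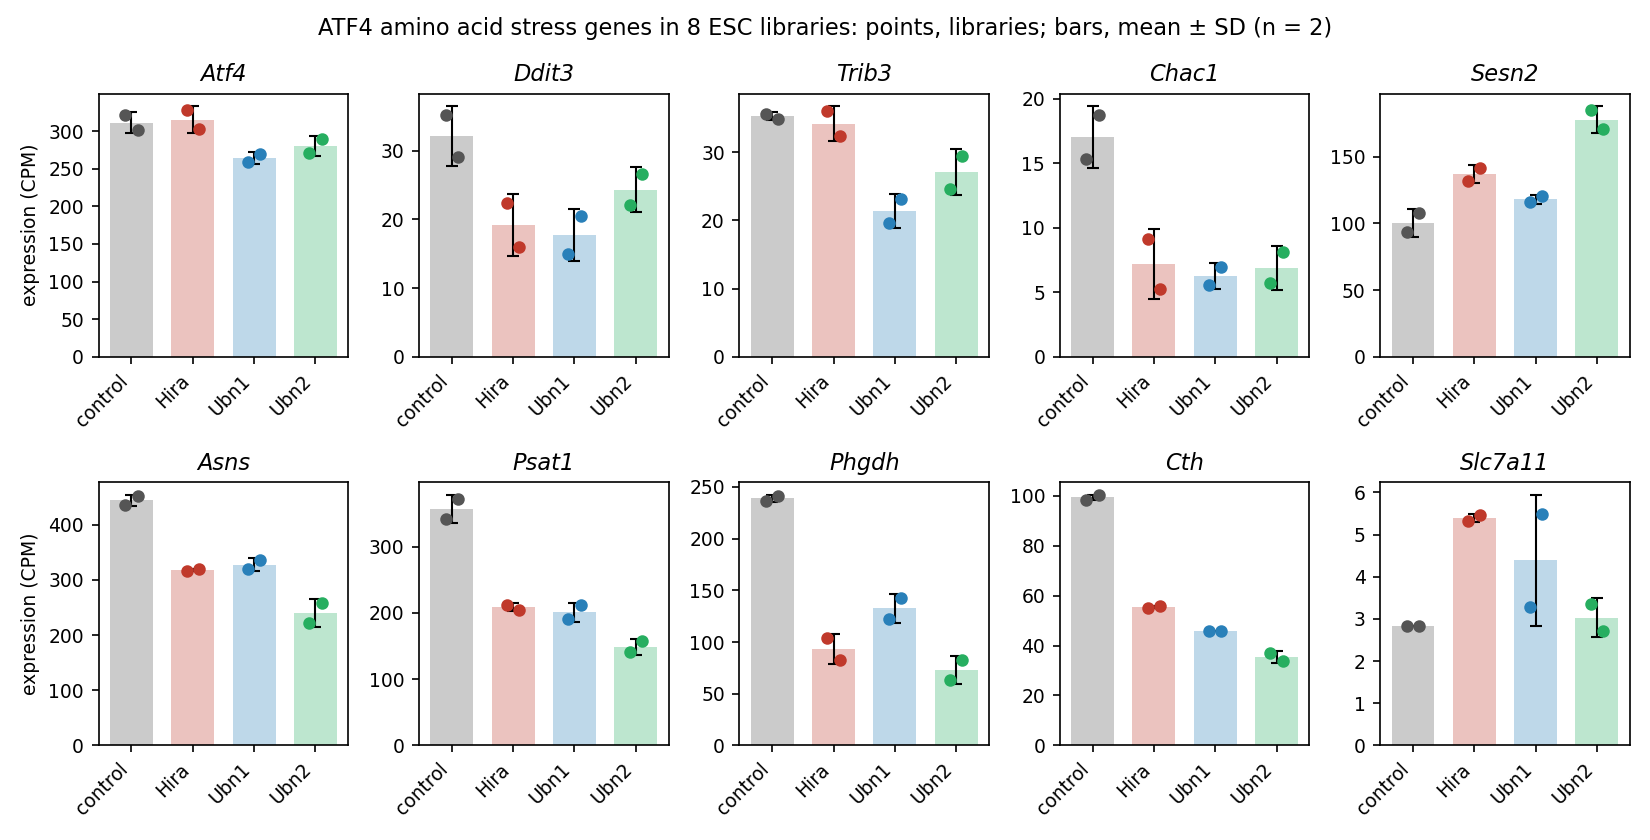
Expression (CPM, linear axis from 0) of each of the 10 genes by group, with points for the 2 libraries of a group and bars with lines for mean ± SD (n = 2). Phgdh, Psat1, Asns, Cth, Chac1 and Ddit3 are lower in every depleted library than in both control libraries, Sesn2 is higher, and Atf4 lies between 259 and 328 CPM throughout. The share of all genes that separate in this way was not computed.

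**Figure D2:**
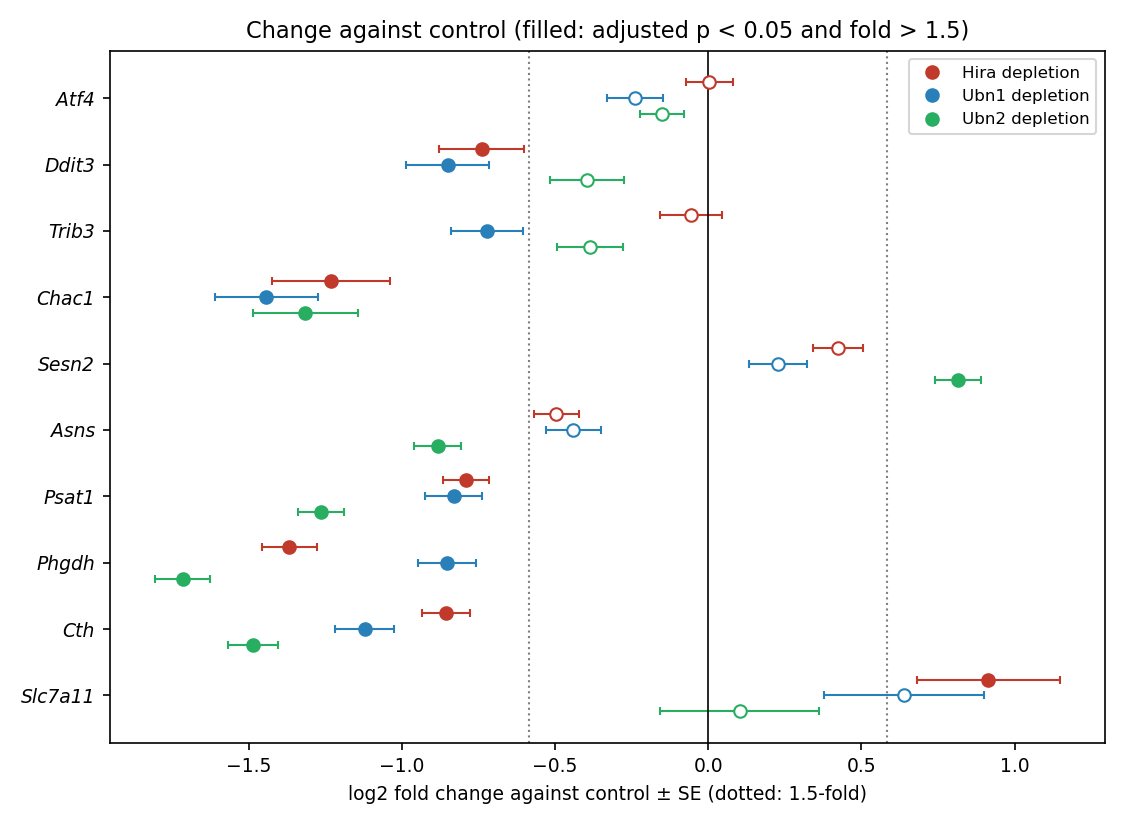
Log2 fold change against control (x axis, ± SE from the edgeR fit) of the 10 genes (y axis) after Hira, Ubn1 and Ubn2 depletion, where filled points were called and dotted lines mark a 1.5-fold change. The lowest point is Phgdh after Ubn2 depletion at -1.72 and the highest is Slc7a11 after Hira depletion at 0.91.

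Of the 3 regulators, Atf4 mRNA itself was not called in any comparison with control, whereas Ddit3 and Trib3 were called lower after some depletions. Atf4 (GRCm38, as for all positions, chr15:80255184-80257541, plus strand) was measured at 321 and 302 CPM in control, 328 and 302 CPM after Hira depletion, 259 and 269 CPM after Ubn1 depletion and 270 and 290 CPM after Ubn2 depletion. The Hira libraries overlapped the control libraries, and the Ubn1 and Ubn2 libraries lay below them. Its log2 fold change was 0.00 (SE 0.08, adjusted p = 0.982) after Hira, -0.24 (SE 0.09, adjusted p = 0.103) after Ubn1 and -0.15 (SE 0.07, adjusted p = 0.0981) after Ubn2 depletion, past the threshold in none of the 3. ATF4 protein was not measured in these libraries.

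Ddit3 (chr10:127290774-127296288, plus strand), which encodes CHOP, read 35.2 and 29.0 CPM in control. After Hira depletion it was 22.4 and 15.9 CPM, after Ubn1 depletion 15.0 and 20.4 CPM and after Ubn2 depletion 22.0 and 26.7 CPM. Every depleted library was below both controls. Ddit3 fell after Hira (log2 fold change -0.74, SE 0.14, adjusted p = 0.000322) and Ubn1 depletion (-0.85, SE 0.14, adjusted p = 8.94e-05), and its value after Ubn2 depletion, -0.40 (SE 0.12, adjusted p = 0.0123), was under the 1.5-fold limit. The call after Hira depletion rested on Hira replicate 2, since without that library the log2 fold change was -0.53. The last exon of Ddit3 overlaps the methionyl-tRNA synthetase gene Mars on the opposite strand over 68 bases, 3.97% of Ddit3 exon length, and reads there cannot be assigned without strand.

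Trib3 (chr2:152337422-152344032, minus strand), the pseudokinase that restrains ATF4, was called against control only after Ubn1 depletion. It was 35.6 and 34.9 CPM in control and 36.0 and 32.4 CPM after Hira depletion, a range that overlapped control. Levels were 19.6 and 23.1 CPM after Ubn1 and 24.6 and 29.4 CPM after Ubn2 depletion, all below control. Trib3 fell after Ubn1 depletion by 0.72 on the log2 scale (SE 0.12, adjusted p = 0.000132), and its log2 fold change was -0.39 (SE 0.11, adjusted p = 0.00704) after Ubn2 and -0.06 (SE 0.10, adjusted p = 0.707) after Hira depletion.

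Phgdh and Psat1, enzymes of serine synthesis, fell after every depletion. Phgdh (chr3:98313170-98339990, minus strand), the entry enzyme, was at 236 and 242 CPM in control. It was 104 and 82.9 CPM after Hira, 123 and 142 CPM after Ubn1 and 63.0 and 82.7 CPM after Ubn2 depletion. All 6 depleted libraries were far below the controls, and the Ubn1 libraries were the highest of the 6. Phgdh fell by 1.37 on the log2 scale (SE 0.09, adjusted p = 1.28e-09) after Hira, by 0.85 (SE 0.09, adjusted p = 3.85e-07) after Ubn1 and by 1.72 (SE 0.09, adjusted p = 1.08e-11) after Ubn2 depletion. Mean Phgdh CPM fell by 60.9%, fell by 44.5% and fell by 69.5%, in that order. The tables also list the pseudogene Phgdh-ps1, and how reads matching both were counted was not given in the sources used here.

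Psat1 (chr19:15904678-15947337, minus strand), the aminotransferase that follows Phgdh, was at 342 and 372 CPM in control. Its levels were 213 and 205 CPM after Hira, 191 and 211 CPM after Ubn1 and 140 and 157 CPM after Ubn2 depletion. No depleted library reached the controls, and both Ubn2 libraries were below all others. Psat1 fell by 0.79 (SE 0.08, adjusted p = 1.31e-07), by 0.83 (SE 0.09, adjusted p = 3.89e-07) and by 1.26 (SE 0.08, adjusted p = 6.69e-11) on the log2 scale after Hira, Ubn1 and Ubn2 depletion.

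Asparagine synthetase, Asns (chr6:7675169-7693254, minus strand), was 437 and 452 CPM in control. It was 317 and 320 CPM after Hira, 319 and 336 CPM after Ubn1 and 223 and 259 CPM after Ubn2 depletion. The Hira and Ubn1 libraries overlapped each other below control, and the Ubn2 libraries lay lower still. Asns fell by 0.88 on the log2 scale (SE 0.08, adjusted p = 1.71e-08) after Ubn2 depletion. After Hira depletion its log2 fold change was -0.50 (SE 0.07, adjusted p = 2.19e-05) and after Ubn1 depletion -0.44 (SE 0.09, adjusted p = 0.00182), both past the p threshold and short of a 1.5-fold change.

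Cth (chr3:157894248-157925077, minus strand), the cysteine-forming enzyme, also fell after every depletion. It read 98.5 and 100.2 CPM in control, 55.3 and 55.7 CPM after Hira, 45.7 and 45.7 CPM after Ubn1 and 37.2 and 33.7 CPM after Ubn2 depletion. The 4 groups did not overlap. Cth fell by 0.86 (SE 0.08, adjusted p = 8.26e-08) after Hira, by 1.12 (SE 0.10, adjusted p = 2.36e-09) after Ubn1 and by 1.49 (SE 0.08, adjusted p = 1.74e-11) after Ubn2 depletion on the log2 scale. The order of the 3 depletions by Cth level was not the order by Phgdh level, in which Ubn1 depletion left the most.

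Chac1 (chr2:119351229-119354381, plus strand), the glutathione-degrading enzyme, read 15.3 and 18.7 CPM in control. It was 9.14 and 5.27 CPM after Hira, 5.56 and 6.99 CPM after Ubn1 and 5.70 and 8.10 CPM after Ubn2 depletion. Every depleted library was below both controls, and the 3 depleted groups overlapped one another. The log2 fold change was -1.23 (SE 0.19, adjusted p = 4.5e-05) after Hira, -1.44 (SE 0.17, adjusted p = 7.97e-07) after Ubn1 and -1.32 (SE 0.17, adjusted p = 3.58e-06) after Ubn2 depletion. Chac1 counts were 111 to 596 per library, and the Hira value moved between -1.72 and -0.93 when single libraries were left out.

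Slc7a11 (chr3:49892526-50443614, minus strand), the cystine importer, rose after Hira depletion. It was 2.82 and 2.83 CPM in control and 5.33 and 5.46 CPM after Hira depletion, with 58 to 176 counts in these 4 libraries. The log2 fold change was 0.91 (SE 0.23, adjusted p = 0.00436). After Ubn1 depletion the 2 libraries differed, at 3.28 and 5.49 CPM, and the log2 fold change of 0.64 (SE 0.26, adjusted p = 0.133) was not called. Without Ubn1 replicate 1 it was 0.95 (adjusted p = 0.0112). Ubn2 depletion gave 3.36 and 2.70 CPM, on both sides of the controls, and a log2 fold change of 0.10 (SE 0.26, adjusted p = 0.786).

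Sesn2 (chr4:132492032-132510501, minus strand), the leucine sensor, rose after Ubn2 depletion. Its levels were 93.2 and 108 CPM in control, 132 and 142 CPM after Hira, 116 and 121 CPM after Ubn1 and 185 and 170 CPM after Ubn2 depletion. All depleted libraries were above both controls, and the 4 groups did not overlap. The log2 fold change was 0.82 (SE 0.08, adjusted p = 3.38e-08) after Ubn2 depletion. It was 0.42 (SE 0.08, adjusted p = 0.000414) after Hira, under the 1.5-fold limit, and 0.23 (SE 0.10, adjusted p = 0.146) after Ubn1 depletion. Among the 4 genes with a C/EBP-ATF core in the promoter, the direction was not shared after Hira depletion, where Chac1 was called lower and Slc7a11 higher. Chac1 was called lower after all 3 depletions. Asns was called lower after Ubn2 depletion. After Hira and Ubn1 depletion Asns was lower past the p threshold but short of 1.5-fold. Trib3 was called lower after Ubn1 depletion, and after Ubn2 depletion was lower past the p threshold but short of 1.5-fold. Slc7a11, at low counts, was not called after Ubn1 or Ubn2 depletion.

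In bulk RNA, fewer cells expressing a gene and less RNA per cell cannot be told apart. Markers of other cell types moved with some groups. The summed level of 6 two-cell-like markers was 3.77 to 6.67 CPM in control, 18.6 to 25.5 CPM after Hira, 14.6 to 15.0 CPM after Ubn1 and 24.4 to 35.0 CPM after Ubn2 depletion. Heart muscle markers summed to 126 to 204 CPM after Ubn2 depletion and to 11.7 to 18.5 CPM in the other 3 groups, with Csrp3 listed at 0 in both control libraries. Trophoblast markers summed to 64.4 to 82.0 CPM after Hira depletion and to 43.9 to 48.8 CPM elsewhere, and the 6 fibroblast markers to 30.7 to 33.3 CPM after Ubn2 depletion and to 35.1 to 45.4 CPM elsewhere. A sum follows its most abundant markers, and single markers of some lists went both ways. The two-cell-like markers did not, with 5 of 5 tested higher after Hira, 5 of 5 after Ubn1 and 6 of 6 after Ubn2 depletion. Of these 5, 4 and 6 were called up, beside 10.8%, 1.53% and 9.59% of all genes. The calls of Usp17lc (Hira and Ubn2), Gm8300 and Zscan4d (Ubn1) and Tcstv3 (Ubn2) ended when 1 library was left out. All 4 trophoblast markers tested were higher after Hira depletion, with 2 called up. After Ubn2 depletion 2 fibroblast markers were called up and 2 down against control. Of the heart muscle markers 4 were called up and 1 down. The shares of all genes in that comparison were 9.59% up and 8.75% down. Primitive endoderm markers summed to 9.03 to 10.8 CPM after Ubn1 depletion and to 14.4 to 16.9 CPM elsewhere. Single markers at 0 in at least 1 library were Tcstv3, Cdx2, Elf5, Gata3, Csrp3, Col3a1 and Lum. The mitochondrial share of counts was 1.41% and 1.45% after Ubn2 depletion and 0.821% to 1.17% in the other libraries. Their part in the changes of the 10 genes was not tested.

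Whether the depletions differ from each other was tested directly, without the control libraries. Between Hira and Ubn2 depletion, 2 of the 10 genes were called higher after Hira depletion, beside 12.0% of 18563 genes, and 0 lower, beside 5.61%. Cth was higher after Hira depletion by 0.65 on the log2 scale (SE 0.09, adjusted p = 7.06e-05) and Slc7a11 by 0.83 (SE 0.23, adjusted p = 0.0117). Without Ubn2 replicate 2 these were 0.58, short of 1.5-fold, and 0.69 with an adjusted p of 0.0794. Asns (0.41, SE 0.08, adjusted p = 0.00157), Psat1 (0.49, SE 0.08, adjusted p = 0.00022), Phgdh (0.37, SE 0.12, adjusted p = 0.0242) and Trib3 (0.35, SE 0.11, adjusted p = 0.0241) passed the p threshold in the same direction, short of 1.5-fold, and Sesn2 in the other (-0.37, SE 0.08, adjusted p = 0.00152). Ddit3, not called at -0.32 (SE 0.15, adjusted p = 0.11), was called at -0.60 without Hira replicate 1. With no fold limit 6 were higher and 1 lower, beside 18.6% and 17.2% of all genes. DESeq2 likewise called 0 of the 10 lower, and Sesn2 was the 1 gene lower at an unadjusted p under 0.05 in the edgeR fit. With DESeq2 the log2 difference of Slc7a11 missed the threshold (0.82, adjusted p = 0.0547).

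Between Hira and Ubn1 depletion, 1 gene was called higher after Hira depletion, beside 9.52% of 18819 genes, and 0 lower, beside 3.16%. DESeq2 also called 0 lower, and 1 gene (Phgdh) was lower at an unadjusted p under 0.05 in the edgeR fit. The called gene was Trib3, with a log2 difference of 0.69 (SE 0.12, adjusted p = 0.000185), which was 0.55 without Ubn1 replicate 1. Phgdh was lower after Hira depletion by an uncalled -0.49 (SE 0.11, adjusted p = 0.00139), and passed 1.5-fold without Hira replicate 1 (-0.67) or Ubn1 replicate 1 (-0.62). Cth was higher after Hira depletion by 0.29 (SE 0.10, adjusted p = 0.0396), short of 1.5-fold. With no fold limit 2 were higher and 1 lower, beside 14.2% and 10.2% of all genes. For Asns the log2 difference was -0.03 (SE 0.10) and for Psat1 0.06 (SE 0.10).

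Between Ubn2 and Ubn1 depletion, Sesn2 was called higher after Ubn2 depletion, beside 4.61% of 18205 genes, and Phgdh lower, beside 4.09%. The log2 difference was -0.87 for Phgdh (SE 0.11, adjusted p = 6.3e-05). For Sesn2 it was 0.59 (SE 0.09, adjusted p = 0.000169), which lay at the 1.5-fold limit and was 0.56 without Ubn1 replicate 1, 0.53 without Ubn2 replicate 1 and 0.58 with DESeq2, none of them called. Asns (-0.45, SE 0.10, adjusted p = 0.00467), Psat1 (-0.44, SE 0.09, adjusted p = 0.00395) and Cth (-0.37, SE 0.10, adjusted p = 0.0202) were lower after Ubn2 depletion, short of 1.5-fold. Ddit3 was higher by 0.45 (SE 0.15, adjusted p = 0.0492), which reached 0.69 and was called without Ubn1 replicate 2. Slc7a11, at -0.54 (SE 0.28, adjusted p = 0.198), was called at -0.86 without Ubn1 replicate 1. With no fold limit 2 were higher and 4 lower after Ubn2 depletion, beside 8.60% and 7.98% of all genes. Chac1 differed in none of the 3 direct comparisons at an adjusted p under 0.05, with log2 differences of 0.10 (SE 0.25), 0.23 (SE 0.23) and 0.13 (SE 0.21) in the order above.

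**Figure D3:**
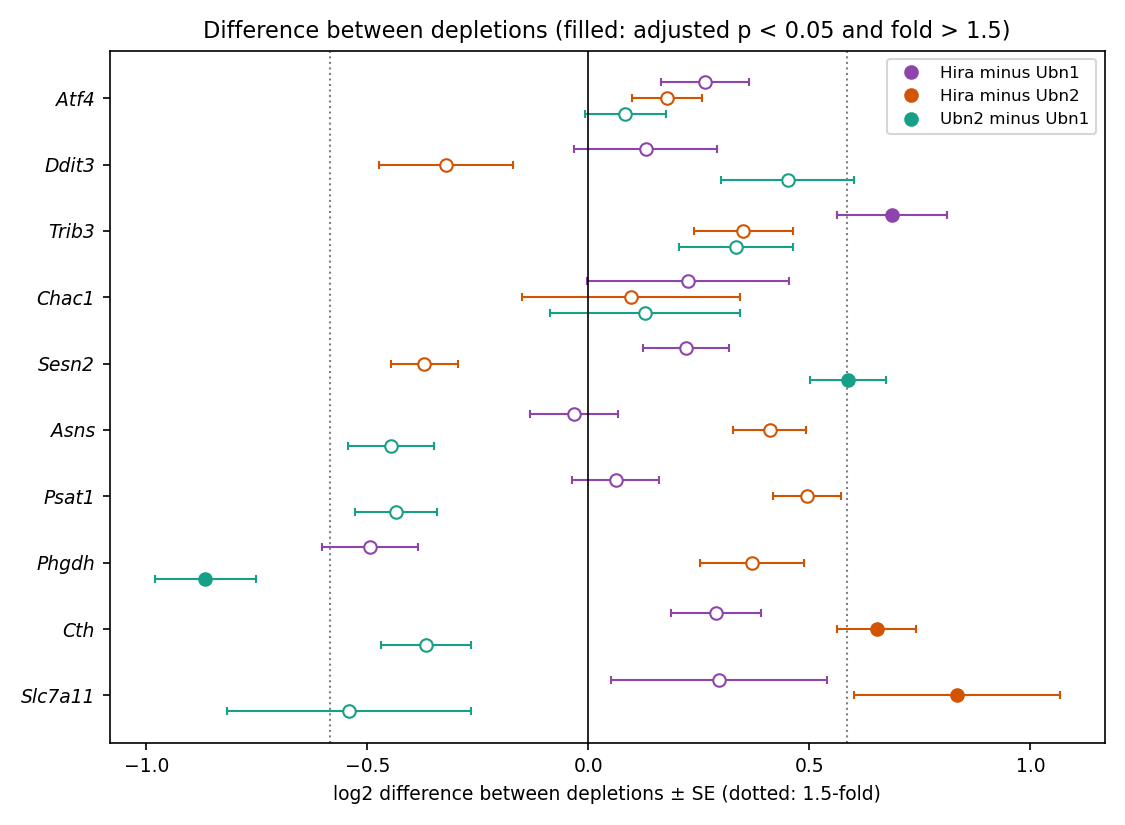
Log2 difference between depletions (x axis, ± SE from the edgeR fit) for the 10 genes (y axis), where filled points were called and dotted lines mark a 1.5-fold difference. Filled points are Trib3 for Hira minus Ubn1, Cth and Slc7a11 for Hira minus Ubn2, and Sesn2 and Phgdh for Ubn2 minus Ubn1.

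Genes around the 10 in the same pathway were read from lists chosen by function, with earlier results of these data known. Counts of called genes in these lists, as in the 10, are therefore a description beside the shares of all genes. Genes of a count that fall outside the naming rule were named after their values were seen. Of 12 further enzymes of serine, one-carbon and other amino acid synthesis, 5 were called down after Hira (Psph, Mthfd2, Pycr1, Gpt2 and Cbs), 3 after Ubn1 (Mthfd2, Aldh1l2 and Gpt2) and 7 after Ubn2 depletion (Mthfd1l, Mthfd2, Aldh1l2, Pycr1, Aldh18a1, Gpt2 and Cbs), and edgeR and DESeq2 called 0 up in each. The shares called down over all genes were 5.40%, 1.56% and 8.75%. Leaving out single libraries gave 4 to 6, 2 to 5 and 6 to 7 called down. The Ubn1 count was 2 without control replicate 2, where Gpt2 had -0.58, and 2 without Ubn1 replicate 1, where Mthfd2 had -0.56, and it was 5 without Ubn1 replicate 2. After Hira depletion the call of Gpt2 ended without control replicate 2 (-0.52) or Hira replicate 2 (-0.58), and after Ubn2 depletion those of Mthfd1l and Aldh18a1 ended without control replicate 2 (-0.54 and -0.53). At an unadjusted p under 0.05, edgeR gave 1 higher after Hira depletion and 0 after the others. The list medians were -0.47, -0.44 and -0.67 on the log2 scale. Mthfd2, a mitochondrial enzyme of one-carbon metabolism, changed by -0.77, -0.65 and -0.83 on the log2 scale in the Hira, Ubn1 and Ubn2 comparisons. Gpt2, an alanine aminotransferase, had -0.67, -0.74 and -1.09. Pycr1, the last step of proline synthesis, had -1.09 after Hira and -1.30 after Ubn2 depletion, and Cbs, which makes the substrate of Cth, had -0.81 and -1.08. For Bcat1, a branched-chain aminotransferase outside the naming rule and picked after its values were seen, no value passed 1.5-fold (0.18, 0.18 and -0.20).

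The cytosolic aminoacyl-tRNA synthetases, which charge tRNAs with amino acids, were mostly lower. With the tRNA exporter Xpot the list held 13 genes, of which 13, 10 and 10 were lower at an adjusted p under 0.05 after Hira, Ubn1 and Ubn2 depletion, beside 17.3%, 3.62% and 19.1% of all genes tested. Of these, 4 (Aars, Lars, Nars and Sars), 1 (Lars) and 5 (Eprs, Gars, Lars, Nars and Sars) were also past 1.5-fold, beside 5.40%, 1.56% and 8.75% of all genes. Those counts were 4 to 7, 1 to 2 and 3 to 5 when single libraries were left out, with 7 without control replicate 1 after Hira, 2 without control replicate 1 or Ubn1 replicate 2 after Ubn1, and 3 without Ubn2 replicate 1 after Ubn2 depletion, where Nars had -0.57 and Gars -0.55. Gars also lost its call without control replicate 2 (-0.50). In each comparison 0 of the 13 were called up by edgeR or DESeq2, and 0 were higher at an unadjusted p under 0.05. Medians were -0.55, -0.41 and -0.40 on the log2 scale. Lars, the leucyl enzyme, had log2 fold changes of -0.80, -0.62 and -0.70, and Sars, the seryl enzyme, -0.98, -0.58 and -0.91, of which the Ubn1 value was not called.

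Of 11 amino acid transporters, 0 were called down after Hira depletion by edgeR or DESeq2 (7 were lower at an unadjusted p under 0.05), 2 after Ubn1 (Slc1a4 and Slc6a9) and 3 after Ubn2 depletion (Slc1a4, Slc1a5 and Slc6a9), beside 5.40%, 1.56% and 8.75% of all genes. Without control replicate 2 the Ubn1 count was 0, with Slc1a4 at -0.58 and Slc6a9 at -0.64 (adjusted p = 0.152), and without Ubn1 replicate 2 it was 3. Without control replicate 1 the Hira count was 1. Slc1a4, a neutral amino acid transporter, had log2 fold changes of -0.42, -0.78 and -0.97. Slc43a1 was called up after Hira depletion at 1.05, beside 10.8% of all genes. After Ubn1 and Ubn2 depletion both tools called 0 up, with 0 and 3 higher at an unadjusted p under 0.05, and 1 was called up after Ubn2 depletion without control replicate 2. The list medians were -0.35, -0.12 and -0.08.

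Other targets and partners of ATF4 were split. Of 13 listed, 12 were tested, since Fgf21 was removed by the filter on low counts. After Hira depletion 5 were called up (Cebpb, Atf3, Atf5, Jdp2 and Gadd45a) and 1 down (Vldlr), beside 10.8% and 5.40% of all genes. The count down was 0 without Hira replicate 2, where Vldlr had -0.56, and 2 without control replicate 2 or Hira replicate 1. Cebpb lost its call without control replicate 1 (0.59, adjusted p = 0.128) or Hira replicate 1 (0.54, adjusted p = 0.15) and with DESeq2 (0.68, adjusted p = 0.103). After Ubn1 depletion 4 were called down (Nupr1, Ddit4, Vldlr and Stc2) and 0 up by edgeR or DESeq2, with 0 higher at an unadjusted p under 0.05, and the share called down over all genes was 1.56%. Without Ubn1 replicate 1 Ddit4 had -0.47 and was not called, which left 3 down. After Ubn2 depletion 3 were called up (Cebpb, Atf5 and Gadd45a) and 4 down (Nupr1, Vldlr, Stc2 and Eif4ebp1), beside 9.59% and 8.75%. The 2 Ubn2 libraries differed 2.30-fold in Cebpb, whose log2 fold change of 0.92 was 0.21 (adjusted p = 0.646) without Ubn2 replicate 2 and 1.41 without Ubn2 replicate 1. Nupr1 had -0.59, which was -0.43 without control replicate 1 and -0.42 without Ubn2 replicate 1, not called in either. Medians were 0.32, -0.42 and -0.45. Vldlr, a lipoprotein receptor, had log2 fold changes of -0.73, -0.87 and -2.13, and Stc2, a secreted glycoprotein, -0.20, -0.86 and -1.24. Atf5, a factor of the same family as ATF4, had 0.81, -0.06 and 0.77, and Gadd45a, a growth arrest and DNA damage gene, 0.92, -0.02 and 0.95. Atf3, outside the naming rule and picked after its values were seen, had 2.19 (adjusted p = 2.97e-07), -0.54 and 0.39. Only its Hira value was called, at means of 1.94 CPM in control and 8.89 CPM after Hira depletion. Set against Ubn1 depletion directly, 9 of the 12 were called higher after Hira depletion and 3 after Ubn2 depletion, beside the 9.52% and 4.61% of all genes given above.

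Genes that act upstream of ATF4 were read in the same way. Among 13 genes for eIF2 kinases, eIF2 and eIF2B subunits and the eIF2 phosphatase, 1 was called down after Hira (Eif2b3, an eIF2B subunit, -0.77), beside 5.40% of all genes, and 1 up after Ubn2 depletion (Ppp1r15a, the stress-induced phosphatase subunit GADD34, 0.65), beside 9.59%. Neither change was particular to that depletion. Ppp1r15a had 0.58 (adjusted p = 1.7e-05) after Hira and Eif2b3 -0.58 (adjusted p = 3.00e-05) after Ubn2 depletion, both just short of 1.5-fold. Hira against Ubn2 depletion directly gave -0.04 (adjusted p = 0.711) for Ppp1r15a and -0.18 (adjusted p = 0.174) for Eif2b3. At an adjusted p under 0.05 with no fold limit, 2 were higher and 4 lower after Hira, 0 and 1 after Ubn1 and 4 and 3 after Ubn2 depletion. The shares of all genes at that limit were 17.6% and 17.3%, 4.14% and 3.62%, and 20.0% and 19.1%. Eif2s1, the subunit that is phosphorylated, was lower in all 3 comparisons at -0.49 (adjusted p = 4.12e-05), -0.33 (adjusted p = 0.0267) and -0.32 (adjusted p = 0.00109), short of 1.5-fold. Leaving out single libraries gave 1 called up after Hira depletion without control replicate 1, and after Ubn2 depletion 2 called down without control replicate 2 and 1 without Ubn2 replicate 2. After Ubn1 depletion edgeR and DESeq2 called 0 of the 13, with 3 at an unadjusted p under 0.05.

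Among 15 chaperones and sensors of the endoplasmic reticulum, 0 were called after Hira depletion by edgeR or DESeq2, 1 down after Ubn1 (Herpud1, -0.60) and 2 up (Xbp1, 0.70, and Dnajb11, 0.61) and 1 down (Sdf2l1, -0.70) after Ubn2 depletion. The shares of all genes were 1.56% down after Ubn1 and 9.59% up and 8.75% down after Ubn2 depletion. Herpud1 lost its call without Ubn1 replicate 1 (-0.43), and Dnajb11 without Ubn2 replicate 1 (0.57). Medians were 0.04, -0.02 and 0.01. At an adjusted p under 0.05 with no fold limit, 4 of the 15 were higher and 2 lower after Hira depletion, beside 17.6% and 17.3% of all genes. Hspa5, the main chaperone BiP, outside the naming rule and picked after its values were seen, had log2 fold changes of 0.21, -0.03 and 0.23.

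Of 10 NRF2 target and glutathione genes, 2 were called up (Nqo1, 0.78, and Srxn1, 1.09) and 2 down (Hmox1, -0.59, and Gss, -0.60) after Hira depletion, and 1 up (Srxn1, 0.88) after Ubn2 depletion. The shares of all genes were 10.8% up and 5.40% down after Hira and 9.59% up after Ubn2 depletion. Both calls down ended without control replicate 1 (Hmox1 -0.58 and Gss -0.55), that of Hmox1 without Hira replicate 1 (-0.52) and that of Gss without Hira replicate 2 (-0.56). Gss is the final enzyme of glutathione synthesis, the product that Chac1 degrades, and Srxn1 reduces oxidized peroxiredoxins. After Ubn1 depletion edgeR and DESeq2 called 0 of the 10, with 3 higher at an unadjusted p under 0.05.

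**Figure D4:**
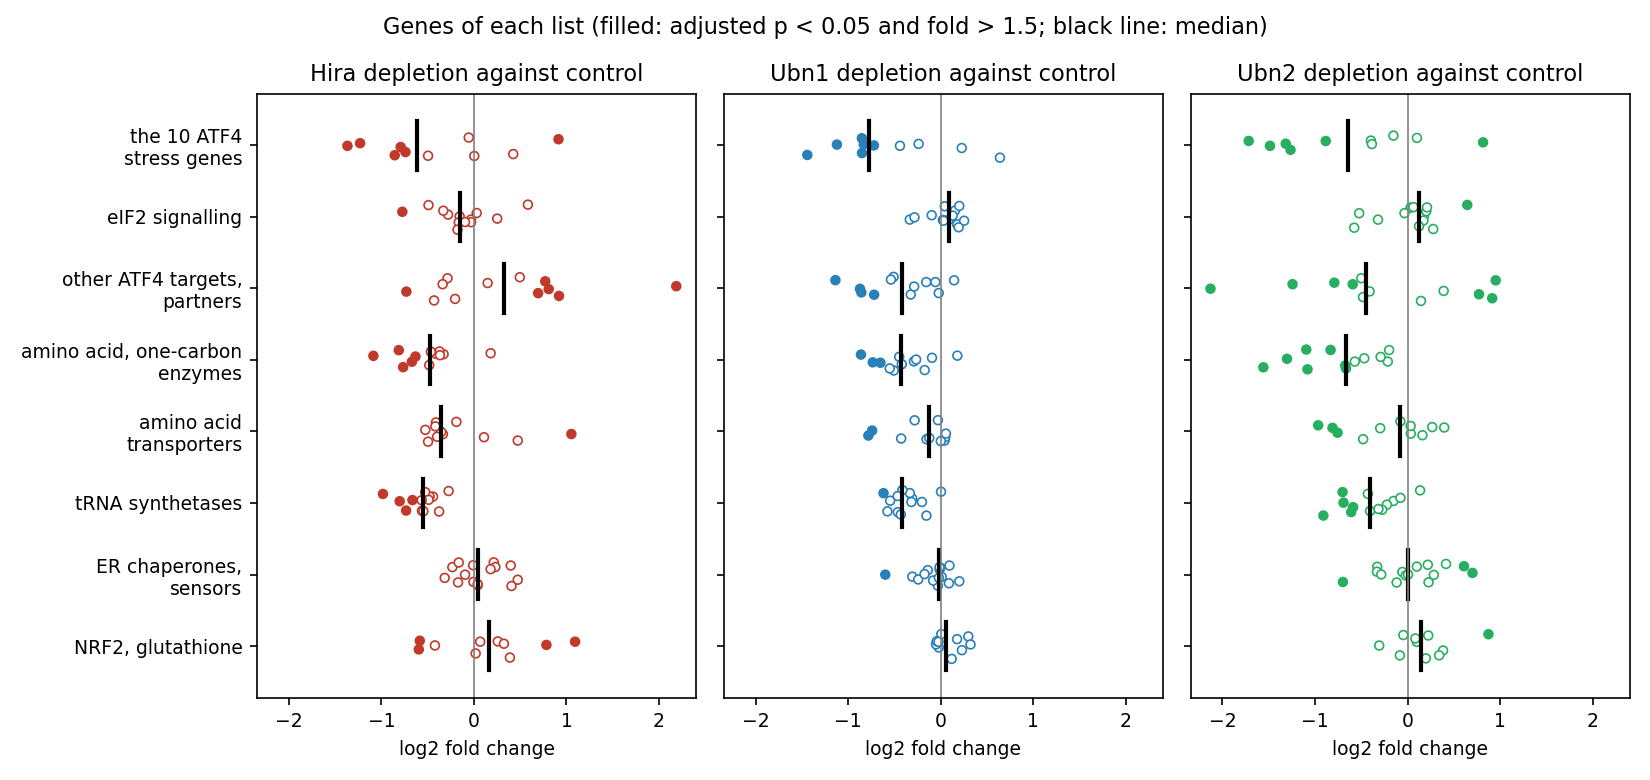
Log2 fold change against control (x axis) of the genes of each list (rows, points spread vertically for visibility) after Hira, Ubn1 and Ubn2 depletion, with filled points for called genes and a black line at the list median. The medians of the 10 ATF4 stress genes, -0.62, -0.78 and -0.64, and of the amino acid and one-carbon enzymes, -0.47, -0.44 and -0.67, lie below 0, and those of the endoplasmic reticulum list are within 0.04 of 0.

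The genes whose pattern over the 8 libraries was most like that of Asns or Trib3 were taken from 3591 genes with a mean of at least 5 CPM and a fold of at least 1.5 between group means, by Pearson correlation of log2 CPM. For Asns they were Egln3 (r = 0.990), Bnip3 (0.987), Lrp2bp (0.986), Ero1l (0.985) and Fam162a (0.984). Bnip3, for example, averaged 195 CPM in control and 92.3, 113 and 48.6 CPM after Hira, Ubn1 and Ubn2 depletion. For Trib3 they were, among these candidates, Cldn6 (r = 0.942), Mael (0.937), Gm44732 (0.931), Cpt1b (0.925) and Ddit4 (0.918). Ddit4 averaged 138 CPM in control and 154, 84.0 and 99.1 CPM in the 3 depletions. Atf4 correlated more closely with Trib3 than these genes did (r = 0.962). Atf4 was short of the fold limit for candidates, since its largest fold between group means was 1.19, for Hira against Ubn1 depletion. These values describe 8 libraries in 4 groups, so the points share group membership and library size, and they carry no test.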

How the data were processed

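RNA-seq was measured in 8 libraries of mouse E14 ESCs, 2 in each of 4 groups, which were taken from the sample titles. The authors deposited raw counts per gene in 3 tables (one per depletion with the shared controls), made by trimming with Trim Galore, alignment to GRCm38 with STAR and counting with featureCounts, per the labels and the study's methods; versions, strand setting and treatment of multiply matching reads were not given in the sources used here. Control counts were checked to be the same in the 3 tables (0 differing values). Totals were 19710040 to 32706053 counts per library.

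Each comparison was fitted on its 4 libraries with edgeR 4.0.16 in R 4.3.3 (TMM, factors 0.970 to 1.06, filterByExpr, quasi-likelihood test, Benjamini-Hochberg adjustment over all genes tested). The call rule, adjusted p under 0.05 and fold over 1.5, follows the study, whose own tool was DESeq2. SE is the log2 fold change divided by the square root of F. The scripts were tested on simulated counts.

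The 10 genes and all lists were chosen with earlier results of these data known. Of each pathway list, the genes named were up to 3 with the smallest adjusted p and those called in at least 2 comparisons with control. For similar patterns, 0.5 was added to CPM before log2. Positions are from GENCODE release M21 (GRCm38), and promoters from RefSeq (GRCm38.p6). Ddit3 has 2 GENCODE identifiers with this symbol. Same-numbered libraries did not deviate together (correlations -0.134 to 0.127), so the main fit had no block. Retrotransposons were not analysed here.

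Alternatives were DESeq2 1.42.0, its size factors in edgeR, a joint fit of the 8 libraries, no filter on low counts, a minimum of 10 counts per library, a replicate block with either set of libraries, adjusted p without a fold limit, and leaving out each library in turn. Other lists were recomputed under the same alternatives, a step added after seeing the data. Tables and figures were made in Python 3.11.15 with pandas 2.3.3, numpy 2.4.6 and matplotlib 3.10.9.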

Additional observations from a re-analysis of the deposited data

Results flagged for a closer look

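The direct comparisons between depletions gave 5 called differences among the 10 genes. Slc7a11 and Cth were higher after Hira than after Ubn2 depletion by 0.83 and 0.65 on the log2 scale, Trib3 was higher after Hira than after Ubn1 depletion by 0.69, Sesn2 was higher after Ubn2 than after Ubn1 depletion by 0.59, and Phgdh differed by -0.87 in that comparison, lower after Ubn2 depletion. Each was tested as a difference between the depleted libraries. Of all genes, 12.0% were called higher and 5.61% lower for Hira against Ubn2 depletion. These shares were 9.52% and 3.16% for Hira against Ubn1, and 4.61% and 4.09% for Ubn2 against Ubn1 depletion. The counts of 2 of 10, 1 of 10 and 1 of 10 higher are near the background. So is the 1 of 10 lower for Ubn2 against Ubn1 depletion. All but the call of Phgdh ended when 1 library was left out: Slc7a11 (0.69, adjusted p = 0.0794) and Cth (0.58) without Ubn2 replicate 2, Trib3 (0.55) and Sesn2 (0.56) without Ubn1 replicate 1, and Sesn2 also without Ubn2 replicate 1 (0.53). The residual target level differed between the depletions, and its part in these differences was not tested.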

How the results depend on the processing

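With 2 libraries per group, single libraries decide values near the 1.5-fold limit, and low counts limit Slc7a11. Against control, 346 of 360 values of a gene under an alternative kept direction and side of the threshold, as did 328 of 360 between depletions. The replicate block, whose numbers were not shown to pair libraries, changed no call of the 10 genes in either form (5 down and 1 up after Hira, 6 and 0 after Ubn1, 5 and 1 after Ubn2 depletion), nor did one fit of all 8 libraries or the 10-count filter.

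With adjusted p alone, 2 genes were up after Hira depletion, Hira against Ubn2 gave 6 higher and 1 lower, Hira against Ubn1 2 and 1, and Ubn2 against Ubn1 2 and 4. DESeq2 gave 1 gene higher in Hira against Ubn2 and 0 in Ubn2 against Ubn1. Atf4 after Hira depletion, near 0, was -0.00978 with DESeq2, -0.00483 with size factors and -0.00860 without a filter.

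Leaving out one library gave 0 to 1 genes up after Ubn1 depletion, 0 to 2 higher and 0 to 1 lower in Hira against Ubn2, 0 to 1 and 0 to 1 in Hira against Ubn1, and 0 to 2 and 1 to 2 in Ubn2 against Ubn1. Medians ran from -0.66 to -0.52 after Hira, -0.88 to -0.64 after Ubn1 and -0.77 to -0.52 after Ubn2 depletion, and from 0.20 to 0.50, 0.00942 to 0.28 and -0.22 to -0.00425 in the direct comparisons. Against control, signs changed for Atf4 (-0.0595 to 0.0557) and Trib3 (-0.14 to 0.0107) after Hira and for Slc7a11 (-0.0630 to 0.25) after Ubn2 depletion. Between depletions they changed for Chac1 in Hira against Ubn2 (-0.38 to 0.42), for Ddit3 (-0.15 to 0.37), Chac1 (-0.25 to 0.54), Psat1 (-0.0338 to 0.13) and Slc7a11 (-0.0425 to 0.71) in Hira against Ubn1, and for Chac1 in Ubn2 against Ubn1 (-0.14 to 0.36). Left-out groups then hold 1 library, which is assumed to vary like the others. Of 561 values of the named genes of other lists, 536 kept their call and 25 lost it. The cause was not tested.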

Other observations

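Close relatives of the 10 genes were also examined. Trib1 and Trib2, pseudokinases of the Trib3 family, were called up after Hira depletion (log2 fold changes 0.77 and 1.21) and after Ubn2 depletion (1.60 and 0.91), and 0.18 and 0.25 after Ubn1 depletion, not called. Of 6 relatives examined (with Sesn1, Sesn3, Chac2 and Atf5), 3 were called up after Hira and 3 after Ubn2 depletion (Trib1, Trib2 and Atf5 in each), beside 10.8% and 9.59% of all genes. Trib1 after Hira depletion was 0.41 (adjusted p = 0.0604) without Hira replicate 2 and 0.52 without control replicate 1, not called in either, which left 2 of the 6. In the edgeR fit 0 were called after Ubn1 depletion, with 0 at an unadjusted p under 0.05 and 0 called by DESeq2. For Sesn1 the log2 fold changes were 0.15, -0.03 and -0.20, beside the 0.82 of Sesn2 after Ubn2 depletion.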
